A study of Mus musculus with 7 samples.

Results

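The proteasome subunit genes were followed in liver RNA of ApoE-/- mice given saline or PX-478, an inhibitor of the hypoxia factor HIF-1α. Members were all rows of the count table whose symbol begins with Psma, Psmb, Psmc, Psmd, Psme, Psmf or Psmg and a number, leaving out Psmb8 and Psmb9. The rule found 45 of the 14889 genes in the table, and used no measured value. One of them, Psmc3ip, shares only its name with the family. It encodes a meiotic recombination factor, reached at most 8 reads in a library, was at 0 in others and did not pass the count filter. The other 44 members were all tested.

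All mice were ApoE-/- on the C57BL/6 strain, aged 4 months, with a Western diet given for 3 months. The saline group held 4 mice injected with saline, and the PX-478 group 3 mice injected with the compound at 40 mg/kg, in both cases intraperitoneally and on a schedule labelled bi-weekly. Loss of Apoe, the diet and the injections were therefore shared by both groups, and the whole liver was the sample. No mice without the diet, without the Apoe deletion or without injections were compared here. Housing and handling days are not in the labels, and the p-values cover the spread among these 7 livers alone.

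Libraries held 10285776 to 17257304 counted reads, and between 22.4% and 36.7% of them came from mitochondrially encoded genes, with PX-478 replicate 2 lowest and PX-478 replicate 1 highest. Apoe had 1899 to 5378 reads in every library. The sources used here do not state which part of the gene is deleted, so these reads check nothing. The 7 hepatocyte markers tested were present in all libraries, with a summed level of 42790 to 59641 CPM (read counts scaled by library size) in saline and 37484 to 44581 CPM in PX-478.

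The proteasome is the main protease of the cytosol and nucleus and degrades proteins tagged with ubiquitin. Its 20S core is a barrel of stacked rings, in which alpha subunits gate the entry and beta subunits carry the protease sites. The 19S regulatory particle caps the barrel. Its base unfolds substrates with a ring of ATPases, and its lid removes ubiquitin. Expression of the subunits is coordinated, and the transcription factor NRF1, encoded by Nfe2l1, raises it when proteasome activity is limiting. Interferon replaces the catalytic beta subunits by the immunoproteasome forms Psmb8, Psmb9 and Psmb10.

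NRF1 and its relatives bind the antioxidant response element, and the 250 bases before the annotated start were searched for its core, TGACNNNGC, on both strands. A promoter was matched for 38 of the 45 members in RefSeq (GRCm38.p6), Psmc3ip among them. The core stood in 5 of them, or 13.2%, against 13.96% of 10520 tested genes with a promoter and 10.2% of all 32851 promoters. The first 2 shares count genes with a match in any of their promoters, and the last counts single promoters. By gene, the letters were thus about as common before the members as before tested genes. The 5 windows follow and are all the matches found, each read 5′ to 3′ in the direction of the gene with up to 20 bases on either side. Capitals mark the core, which reads as its reverse complement in Psmc6 and Psmd12.
Psmb5, chr14:54618014-54618062, minus strand: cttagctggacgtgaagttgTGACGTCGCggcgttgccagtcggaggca
Psmb6, chr11:70525328-70525356, plus strand: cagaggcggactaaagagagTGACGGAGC
Psmd12, chr11:107479278-107479309, plus strand: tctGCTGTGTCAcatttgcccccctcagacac
Psmc6, chr14:45329577-45329625, plus strand: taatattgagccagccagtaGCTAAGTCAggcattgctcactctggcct
Psmd9, chr5:123228139-123228187, plus strand: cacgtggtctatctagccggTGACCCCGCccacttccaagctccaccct
Psmb5 and Psmb6 encode catalytic subunits, Psmd12 a lid subunit, Psmc6 a base ATPase and Psmd9 a chaperone of base assembly. Their log2 fold changes, PX-478 over saline, were -0.44, -0.34, -0.31, 0.14 and -0.13, with 95% intervals that overlapped each other. None of these cores overlapped a match to the other motifs searched. Those were CCAAT, bound by NF-Y, in 13 members (34.2% against 40.6% of tested genes), an interferon response element, searched as 2 GAAA runs parted by any 2 bases, in 3 (7.89% against 3.37%), and TTCNNNGAA, a STAT site, in 1 (2.63% against 7.32%). A match is a run of letters, and binding was not measured.

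No proteasome gene passed the test between the groups, and most had somewhat lower values in PX-478 livers. In whole liver, fewer cells of a type and less RNA per cell cannot be told apart. Of the 44 members, 36 were lower and 8 higher, for a median log2 fold change of -0.24 against 0.00 over all genes tested. With edgeR's quasi-likelihood test and an adjusted p under 0.05, 0 members were called lower and 0 higher. Over all genes that rule called 0.0073% lower and 0% higher. DESeq2 and limma-voom also called 0 members. They had 6 and 7 lower at an unadjusted p under 0.05, where 3.89% and 3.53% of all genes were. At an unadjusted p under 0.05, 8 members were lower (18.2%), where 3.48% of all genes were, and 0 were higher, where 3.48% of all genes were. All PX-478 libraries lay below all saline libraries in 11 members (25%), where 4.29% of all genes did so, and above them in 0, where 4.3% did. Standard errors of the members' log2 fold changes ran from 0.17 to 0.56 with a median of 0.21, so that most of the differences were within 2 standard errors.

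**Figure D1:**
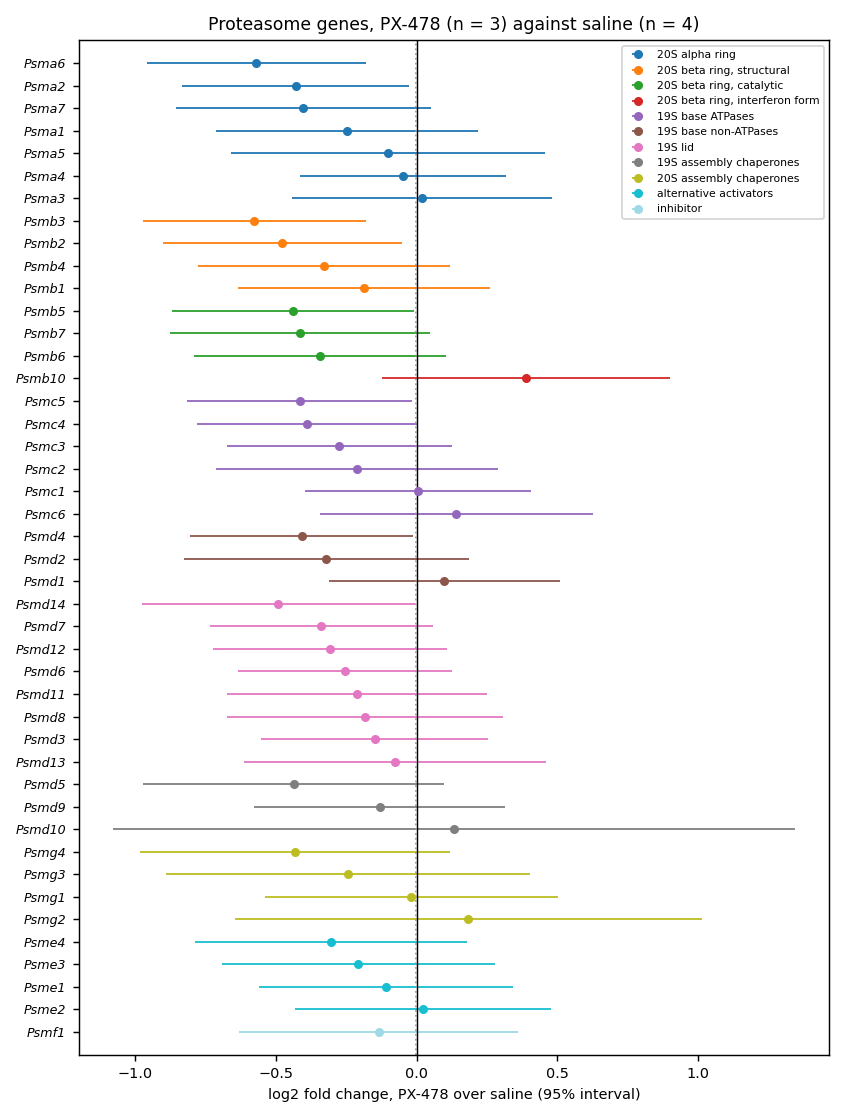
Log2 fold change of PX-478 (n = 3) over saline (n = 4) for the 44 proteasome genes tested, with 95% intervals from edgeR's fit, coloured by role; the dotted line is the median of all genes tested. Of the points, 36 lie left of 0, 8 intervals lie wholly below 0 and 0 wholly above it.

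Much of the shift came from 1 library. PX-478 replicate 1 held the lowest of the 7 values in 26 of the 44 members, while Saline replicate 3 held the highest in 23 and Saline replicate 1 in 13. How often these libraries held the extreme value over all genes is not given here. Without PX-478 replicate 1 the median of the members was -0.11, with 34 of 44 still lower, and 2 members were lower at an unadjusted p under 0.05, where 1.95% of all genes were. That count was also 2 without Saline replicate 3, where 3.38% of all genes were lower. It was 4 without Saline replicate 1 and 4 without PX-478 replicate 2, where 2.74% and 4.25% of all genes were. Groups without overlap were seen in 12 members lower and 1 higher without PX-478 replicate 1, when 6.62% and 6.69% of all genes were. PX-478 replicate 1 also had the highest share of mitochondrially encoded reads, and its part in the result was not tested. With the mitochondrially encoded genes removed from every library, 8 members were lower at an unadjusted p under 0.05, where 3.45% of all genes were. The median of the members was then -0.24. Such a removal leaves the members' own counts as they were, so it cannot show what that share means for the liver.

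**Figure D2:**
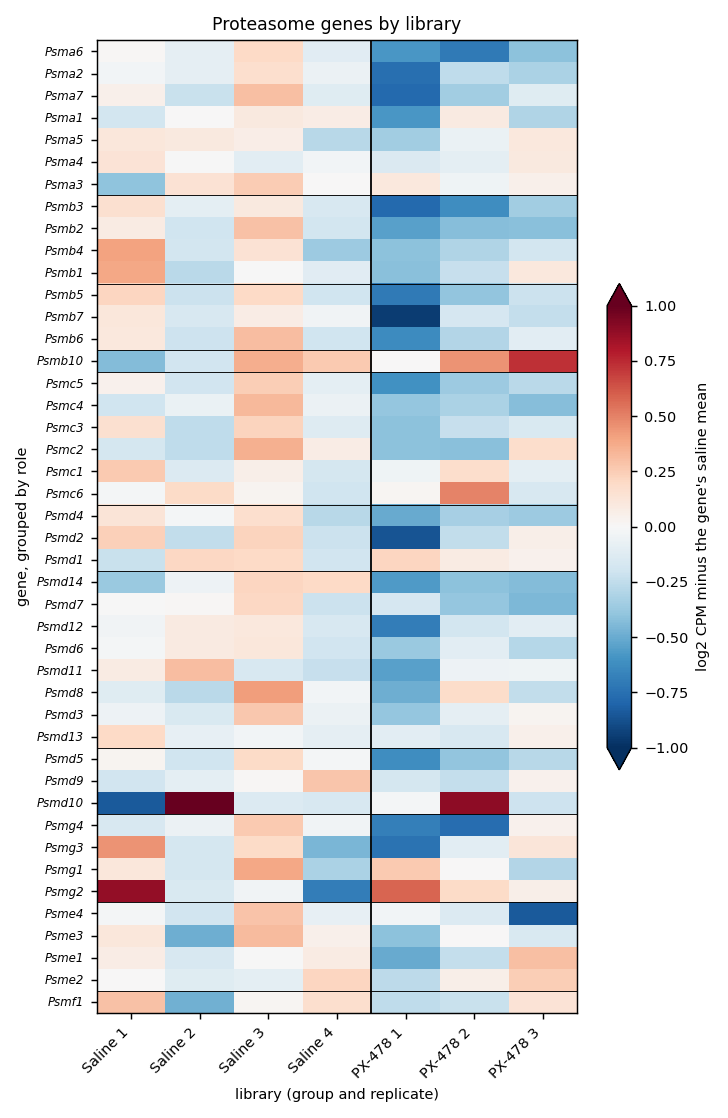
Each cell is the log2 CPM of a gene in 1 library minus that gene's mean over the 4 saline libraries (colour scale, clipped at -1 and 1), with genes ordered by role and black lines between roles. The column of PX-478 replicate 1 is blue for most genes, and Psmb10 runs against its neighbours in PX-478 replicates 2 and 3.

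Among the alpha subunits, 6 of 7 were lower, at a median log2 difference of -0.25. At an unadjusted p under 0.05, 2 of the 7 were lower, where 3.48% of all genes were. Psma6 (Entrez Gene 26443, chromosome 12 from 55384222 to 55418454 in GENCODE M21) encodes a subunit of the alpha ring. Its levels were 43.0, 40.1, 49.0 and 39.5 CPM in saline replicates 1 to 4 and 28.6, 26.1 and 32.04 CPM in PX-478 replicates 1 to 3, so that the groups did not overlap. Its means were 42.9 ± 4.38 CPM (SD, n = 4) and 28.9 ± 2.99 CPM (SD, n = 3), with a log2 fold change of -0.57 (SE 0.18, 95% interval -0.96 to -0.18, adjusted p = 0.541 in edgeR). Psma2 stood at 49.6, 47.5, 56.8 and 48.4 CPM with saline, against 30.0, 42.3 and 40.5 CPM with PX-478 (fitted log2 difference -0.43, SE 0.19, adjusted p = 0.692). Here PX-478 replicate 1 was the lowest by far, and the groups again did not overlap. Psma7 had a log2 fold change of -0.40 and Psma1 of -0.25, both with overlapping groups. Psma4, the steadiest core gene over the saline libraries, stood at 90.2 to 107 CPM with saline, against 87.6 to 104 CPM with PX-478. Its log2 fold change was -0.05 (SE 0.17), that of Psma5 -0.10 (SE 0.26) and that of Psma3 0.02 (SE 0.21).

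The structural beta subunits, which carry no protease site, were lower in 4 of 4 cases, with a median log2 fold change of -0.40. Psmb3 (Entrez Gene 26446, chromosome 11 from 97703399 to 97713500) had the smallest p of all members. It stood at 76.1, 63.7, 73.0 and 61.1 CPM with saline, against 39.7, 44.3 and 53.6 CPM with PX-478, without overlap. The means were 68.5 ± 7.18 CPM (SD, n = 4) and 45.9 ± 7.10 CPM (SD, n = 3), and edgeR fitted a log2 difference of -0.58 (SE 0.18, 95% interval -0.97 to -0.18, adjusted p = 0.541). Without PX-478 replicate 1 it was -0.48. Psmb2 stood at 32.04, 26.4, 37.1 and 26.7 CPM with saline, against 20.7, 22.5 and 22.6 CPM with PX-478, also without overlap (fitted log2 difference -0.48, SE 0.20, adjusted p = 0.677). Psmb4 and Psmb1 were at -0.33 and -0.19, with overlap, and Saline replicate 1 was the highest library in both.

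The catalytic subunits of the standard proteasome were lower in 3 of 3 cases. Psmb5 encodes the chymotrypsin-like subunit that proteasome inhibitors such as bortezomib block. Its levels were 62.1, 46.1, 61.5 and 46.6 CPM in saline and 32.7, 40.8 and 46.1 CPM in PX-478. Saline replicate 2 and PX-478 replicate 3 were almost level, so the groups were barely apart (fitted log2 difference -0.44, SE 0.20, adjusted p = 0.699). Psmb7, the trypsin-like subunit, stood at 45.5, 37.5, 44.3 and 41.0 CPM with saline, against 21.7, 37.4 and 35.6 CPM with PX-478, and its low mean rested on PX-478 replicate 1. Its log2 fold change of -0.42 (SE 0.21, adjusted p = 0.736) went to -0.20 without that library. On the opposite strand Nek6 covers 34.9% of the Psmb7 exons, and strand use in the counting is not stated, which leaves part of its reads uncertain. Psmb6, the caspase-like subunit, was the most highly read member of the core, at 201, 162, 232 and 163 CPM with saline, against 121, 153 and 174 CPM with PX-478, with overlap (fitted log2 difference -0.34, SE 0.21, and -0.21 without PX-478 replicate 1). Pseudogenes of Psmb5, Psmb6, Psmb7 and Psma5 lie elsewhere in the genome, so the split of their reads is uncertain too.

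Psmb10, the interferon-induced form of the trypsin-like subunit, went the other way from the other beta members, though not from the left-out Psmb8 and Psmb9. It stood at 32.9, 38.9, 57.0 and 53.2 CPM with saline, against 44.4, 60.5 and 73.9 CPM with PX-478. The groups overlapped, and the saline libraries themselves spanned a wide range. The log2 difference fitted by edgeR was 0.39, with SE 0.24, a 95% interval of -0.12 to 0.90 and an adjusted p = 0.778, and went to 0.20 without PX-478 replicate 3. Psmb10 and Psmb7 occupy the same place in the ring, and their ratio within a library does not depend on the scaling. Per kilobase of exon, Psmb10 over Psmb7 was 0.640, 0.920, 1.14 and 1.15 in saline and 1.815, 1.43 and 1.83 in PX-478, so that all 3 PX-478 livers lay above all 4 saline livers. This ratio was chosen after its values were seen and was not tested. In PX-478 replicate 1 Psmb7 was low, at 21.7 CPM, while Psmb10 at 44.4 CPM lay within its saline range. The limits given above for the reads of Psmb7 hold for the ratio too. The corresponding ratios of the other immunoproteasome subunits overlapped. Psmb8 over Psmb5 spanned 0.321 to 0.695 for saline and 0.569 to 0.757 for PX-478, and Psmb9 over Psmb6 spanned 0.0394 to 0.127 and 0.101 to 0.166.

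**Figure D3:**
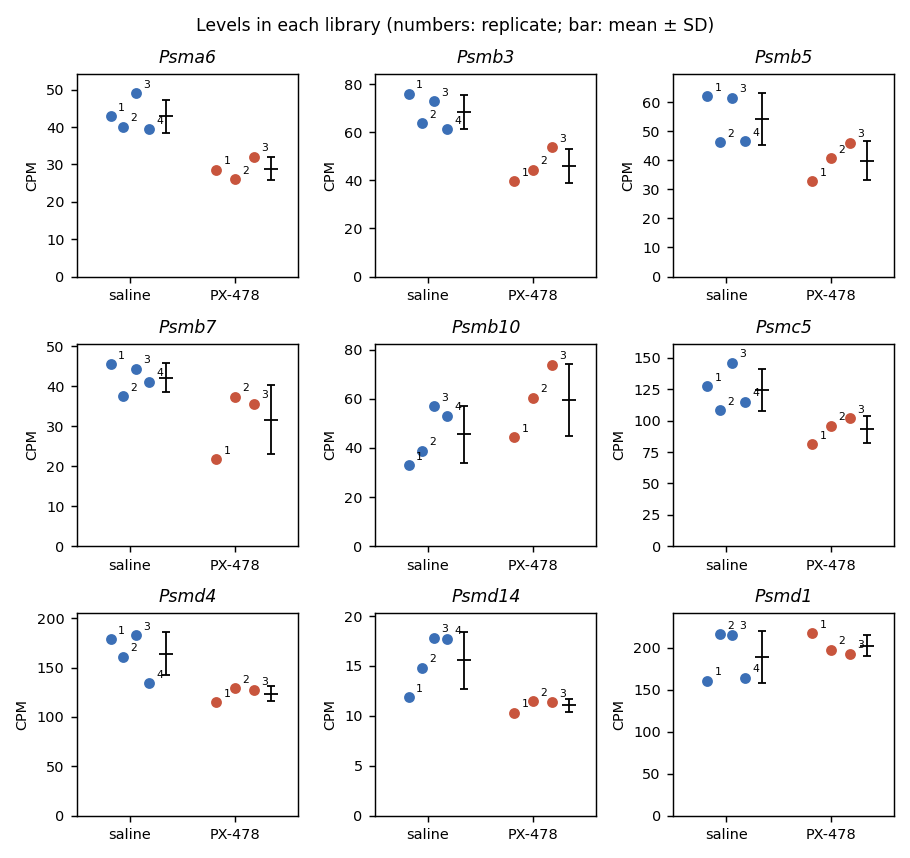
TMM-scaled CPM of 9 proteasome genes in each library (points, with the replicate number beside them) and mean ± SD of each group (black bars), on axes that start at 0. Psma6, Psmb3, Psmb5, Psmb7, Psmc5, Psmd4 and Psmd14 do not overlap between the groups, while Psmb10 and Psmd1 do.

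In the list of immunoproteasome and interferon genes, 6 of 6 tested had positive log2 fold changes, against 6807 of all 13693 genes tested. The median of these 6 genes was 0.29, and 1 was higher at an unadjusted p under 0.05, where 3.48% of all genes were. That one was Irf1, a transcription factor of interferon responses, whose groups did not overlap, at 60.0, 51.3, 32.3 and 57.2 CPM in saline and 77.6, 62.0 and 95.4 CPM in PX-478 (fitted log2 difference 0.64, SE 0.23, adjusted p = 0.602). Tap1, which carries proteasome products to MHC class I, had a log2 fold change of 0.46 (SE 0.27), Psmb9 of 0.32 (SE 0.32) and Psmb8 of 0.15 (SE 0.24). The interferon-induced members Psmb10, Psme1 and Psme2 are not in this list, and had log2 fold changes of 0.39, -0.11 and 0.02. Without PX-478 replicate 3 Tap1 was at 0.12. The values of Psmb8 and Psmb9 turned to -0.08 and -0.09 without PX-478 replicate 3, which held the highest level of both. Leukocytes carry more immunoproteasome than hepatocytes, so their markers are given beside these genes. The 12 macrophage markers summed to 369 to 712 CPM with saline, against 338 to 467 CPM with PX-478. Of them 11 were lower and 1 higher, at a median log2 fold change of -0.51. At an unadjusted p under 0.05, 5 were lower, where 3.48% of all genes were. T and NK cell markers summed to 4.08 to 14.3 and 7.18 to 8.85 CPM, with Cd3d, Cd3e, Cd3g, Cd8a, Nkg7 and Trac at 0 reads in at least 1 library. B and plasma cell markers summed to 5.14 to 8.21 and 2.95 to 3.55 CPM. For none of these 3 sums did the PX-478 livers all lie above the saline livers, and their part in the result was not tested.

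The 19S base holds a ring of ATPases, of which 4 of 6 were lower, at a median log2 difference of -0.24. Psmc5 stood at 127, 108, 146 and 115 CPM with saline, against 81.2, 96.0 and 102 CPM with PX-478, without overlap (fitted log2 difference -0.42, SE 0.18, adjusted p = 0.695). Psmc4 stood at 66.6, 73.2, 96.1 and 73.5 CPM with saline, against 58.7, 61.6 and 57.0 CPM with PX-478 (fitted log2 difference -0.39, SE 0.18, adjusted p = 0.722). Psmc3 and Psmc2 were at -0.27 and -0.21, while Psmc1 was at 0.01 (SE 0.19) and Psmc6 at 0.14 (SE 0.22). Subunits of 1 ring thus had point estimates on both sides of 0, with intervals that overlapped each other.

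The other base subunits bind ubiquitin and hold the particle together. Psmd4, a ubiquitin receptor, stood at 179, 161, 183 and 134 CPM with saline, against 115, 129 and 127 CPM with PX-478, and the groups did not overlap (fitted log2 difference -0.41, SE 0.18, adjusted p = 0.697). The 2 large scaffold subunits had estimates of opposite sign. Psmd1 stood at 161, 216, 216 and 164 CPM with saline, against 217, 198 and 193 CPM with PX-478 (fitted log2 difference 0.10, SE 0.19, 95% interval -0.31 to 0.51), and PX-478 replicate 1 was its highest library. Psmd2 stood at 77.5, 55.3, 76.5 and 56.4 CPM with saline, against 35.9, 55.3 and 68.4 CPM with PX-478 (fitted log2 difference -0.32, SE 0.23), and there PX-478 replicate 1 was the lowest. Without that library the value was -0.10.

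All 8 lid genes had lower values in PX-478. Their median was -0.23 on the log2 scale, with 1 at an unadjusted p under 0.05, where 3.48% of all genes were lower. That was Psmd14, the deubiquitinase of the lid, at 11.9, 14.8, 17.8 and 17.7 CPM in saline and 10.3, 11.5 and 11.4 CPM in PX-478. The gap between the groups was narrow, since Saline replicate 1 stood close to the PX-478 libraries (fitted log2 difference -0.49, SE 0.22, 95% interval -0.98 to -0.01, adjusted p = 0.707). Psmd7, its partner in the lid, stood at 39.6, 40.07, 45.9 and 34.1 CPM with saline, against 35.3, 30.4 and 29.04 CPM with PX-478, with overlap (fitted log2 difference -0.34, SE 0.18). Psmd11, whose level is thought to limit how much 26S proteasome is assembled, stood at 29.4, 34.4, 24.9 and 23.6 CPM with saline, against 19.02, 26.8 and 26.9 CPM with PX-478. Its groups overlapped (fitted log2 difference -0.21, SE 0.21), and the value went to -0.10 without Saline replicate 2 and to -0.06 without PX-478 replicate 1. The remaining lid genes ran from -0.31 in Psmd12 to -0.08 in Psmd13.

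Core and regulatory particle did not part between the groups. The 15 core genes had a median log2 fold change of -0.34, with 13 lower, and the 17 genes of the 19S particle one of -0.26, with 14 lower. Without PX-478 replicate 1 these medians were -0.21 and -0.11. Summed over its genes, the core stood at 982, 819, 1033 and 839 CPM with saline, against 631, 764 and 861 CPM with PX-478. The 19S particle stood at 1029, 1011, 1185 and 924 CPM with saline, against 827, 925 and 921 CPM with PX-478. In both sums PX-478 replicate 1 was the lowest. The groups overlapped, in the 19S sum by about 1 CPM. The log2 ratio of core to 19S was -0.18 ± 0.10 (SD, n = 4) in saline and -0.25 ± 0.15 (SD, n = 3) in PX-478. The difference of -0.08 was smaller than either SD, and went to -0.01 without PX-478 replicate 1 and to -0.16 without PX-478 replicate 3.

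**Figure D4:**
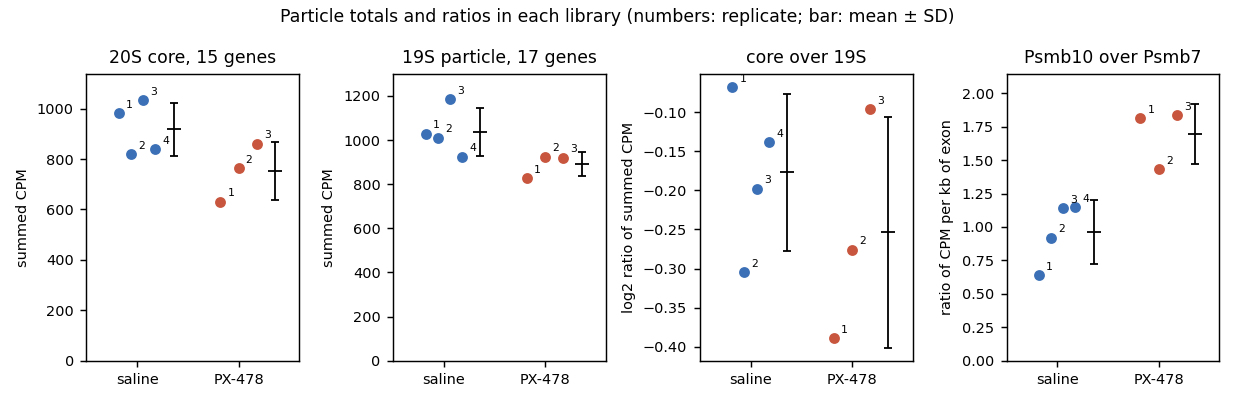
Summed CPM of the 15 core genes and of the 17 genes of the 19S particle, the log2 ratio of these sums, and the ratio of Psmb10 to Psmb7 per kilobase of exon, in each library (points with replicate numbers) with mean ± SD (black bars). The first 3 panels overlap between the groups, and in the last the PX-478 livers at 1.43 to 1.83 stand above the saline livers at 0.640 to 1.15.

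Per kilobase of exon the subunits of 1 particle differed widely in transcript level, although each is present in equal number in the assembled complex. In saline, core genes ran from 6.23 ± 1.17 CPM per kb (SD, n = 4) for Psma3 and 6.44 ± 0.796 for Psma5 to 100.99 ± 16.5 for Psma7 and 238 ± 41.9 for Psmb6. Psma3 and Psma5 did not differ beyond their spread. Genes of the 19S particle ran from 3.94 ± 0.392 CPM per kb for Psmd13 to 94.4 ± 12.7 for Psmc5. The order was much the same in PX-478, with a Spearman rho between the groups of 0.965 across 14 core genes and 0.988 across 17 genes of the 19S particle, where genes are not independent replicates. Lengths are those of all exons in GENCODE's basic transcripts, which can exceed the transcript used in liver.

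Genes outside both particles had a median log2 fold change closer to zero, at -0.13, with 9 of 12 lower. Single genes ran from -0.44 in Psmd5 to 0.18 in Psmg2, and the classes were not tested against each other. Psme1 and Psme2 encode PA28 alpha and beta, an interferon-induced cap, and lie near each other on chromosome 14. Psme1 stood at 115, 97.3, 109 and 115 CPM with saline, against 76.5, 92.3 and 134 CPM with PX-478, so that the PX-478 livers lay on both sides of the saline range (fitted log2 difference -0.11, SE 0.21). Psme2 stood at 16.7, 15.3, 15.5 and 19.2 CPM with saline, against 13.8, 17.2 and 19.7 CPM with PX-478 (fitted log2 difference 0.02, SE 0.21). Psme3, which encodes a nuclear cap, stood at 26.7, 17.6, 30.9 and 25.6 CPM with saline, against 18.5, 24.8 and 22.2 CPM with PX-478 (fitted log2 difference -0.21, SE 0.22). In all 3 of these cap genes the groups overlapped. Psme4 encodes PA200, a cap linked to histone degradation, and stood at 41.5, 36.9, 51.4 and 39.8 CPM with saline, against 41.4, 38.3 and 23.4 CPM with PX-478, with only replicate 3 below the saline range. Its log2 fold change was -0.31, and -0.09 without that library. The inhibitor gene Psmf1 stood at 24.2, 14.05, 19.96 and 22.05 CPM with saline, against 16.4, 16.8 and 21.6 CPM with PX-478, all within the saline range (fitted log2 difference -0.14, SE 0.23).

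Assembly chaperones help the rings form and leave the finished particle. Psmd5, a chaperone of the base, stood at 9.44, 8.07, 10.6 and 9.15 CPM with saline, against 5.99, 7.03 and 7.63 CPM with PX-478, without overlap (fitted log2 difference -0.44, SE 0.25, adjusted p = 0.766). Psmd9 stood at 15.6, 16.7, 17.98 and 21.7 CPM with saline, against 15.7, 15.1 and 18.4 CPM with PX-478, with overlap (fitted log2 difference -0.13, SE 0.21). Psmd10, which encodes gankyrin, had 16 to 52 reads per library and a log2 fold change of 0.13 (SE 0.56), with a wide 95% interval of -1.08 to 1.35. Of the chaperones of the core, Psmg4 stood at 12.8, 13.7, 17.2 and 13.97 CPM with saline, against 8.85, 8.40 and 14.7 CPM with PX-478. Replicate 3 alone kept its groups from parting (fitted log2 difference -0.43, SE 0.25, and -0.74 without it). Psmg3 had a log2 fold change of -0.24 (SE 0.30), Psmg1 of -0.02 (SE 0.24) and Psmg2 of 0.18 (SE 0.38).

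Within saline alone the median SD of the members was below that of the tested genes. The SD of log2 CPM over the 4 saline libraries had a median of 0.216 over the 44 members, against 0.319 over the 10652 tested genes in the same range of levels. That range runs from the lowest to the highest member and holds 10652 of the 13693 tested genes. Levels were thus not matched, and their part in this difference was not tested. The SD of a member ran from 0.1005 in Psma4 to 0.825 in Psmd10. Saline livers differed from each other in a common direction, since 36 of 44 members were above their own saline mean in Saline replicate 3 and 26 in Saline replicate 1, but 10 in each of the other 2. In PX-478 livers 6, 11 and 17 members were above that mean. Between 48.1% and 54.8% of all genes were above theirs in any of the 7 libraries.

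No gene of the lists around the proteasome passed the adjusted threshold either. At an unadjusted p under 0.05, 3.48% of all genes were lower and 3.48% higher. In the list of NRF1 pathway genes 4 of 7 were higher and 3 lower, with a median of 0.00 and 0 at an unadjusted p under 0.05. Nfe2l1 itself stood at 96.6, 97.8, 105 and 95.5 CPM with saline, against 82.8, 82.4 and 80.0 CPM with PX-478. Both groups were tight and did not overlap, but the log2 fold change of -0.27 (SE 0.16, 95% interval -0.62 to 0.08, adjusted p = 0.770) did not pass. The ubiquitin ligase gene Syvn1 spread from 112 to 1277 CPM within saline, and its log2 fold change of -1.001 had an SE of 0.91 and went to -0.16 without Saline replicate 3. Of 11 partners of the proteasome 10 were lower, at a median log2 difference of -0.20, and 0 passed at an unadjusted p under 0.05. The receptor gene Adrm1 was at -0.40 (SE 0.20), the heat-inducible Zfand2a at -0.66 (SE 0.37) and Pomp, the maturation factor of the core, at -0.21 (SE 0.23). Pomp went to -0.07 without Saline replicate 1 and to -0.03 without PX-478 replicate 1, and Zfand2a to -0.35 without the latter. Ubiquitin shuttles had 6 of 8 lower and a median of -0.05. Among them Sqstm1, the autophagy receptor p62, stood at 183 to 263 CPM with saline, against 161 to 180 CPM with PX-478 (fitted log2 difference -0.43, SE 0.19, adjusted p = 0.695). Of 5 genes for ubiquitin and its activation 3 were lower, with Ubb at -0.17 (SE 0.26) and Uba1 at -0.16 (SE 0.20).

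Hepatocyte markers shared the direction of the proteasome genes, since 6 of 7 were lower, at a median log2 fold change of -0.32. Of these markers 1 was lower at an unadjusted p under 0.05 (3.48% of all genes). Their summed levels overlapped between the groups, at the ranges given above, and their part in the result was not tested. Macrophage markers had the lower median given above. Of the endothelial markers 4 of 7 were higher, at a median of 0.34, and their sum was 106 to 155 CPM with saline and 151 to 179 CPM with PX-478. Stellate cell and fibroblast markers were higher in 6 of 7 cases, at a median of 0.26, with sums of 169 to 203 and 139 to 318 CPM. The part of these cell types was not tested either.

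The authors' deposited table gave many more small p-values for the same genes. The authors' deposited table listed 19 members with an unadjusted p under 0.05 and a lower value, against 13.1% of all genes, and 1 member, Psmb10, with a higher value, against 12.9%. For Psma6 the authors' deposited table gave a log2 fold change of -0.57 with p = 1.02e-05, and for Psmb3 one of -0.57 with p = 2.84e-05. The table holds 2 count columns per sample, which differed by less than the sampling noise. When all 14 columns were entered as separate libraries, log2 fold changes came within 0.0021 of the deposited ones for every member. The fit of 7 libraries was close too, at -0.57 for Psma6 and -0.58 for Psmb3. Such closeness therefore cannot show how the deposited p-values were obtained. At an adjusted p under 0.05 the fit of 14 columns called 11 members lower, where it called 5.25% of all genes, and 0 higher, where it called 4.71%. Such a fit counts each liver as 2, and its p-values do not measure the spread between mice.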

How the data were processed

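Liver RNA from 4 saline and 3 PX-478 mice was sequenced. The authors deposited raw read counts per gene, 2 columns for each sample. Per the submitters' processing notes, featureCounts and edgeR were the tools and mm10 the build. No version or aligner is recorded there. The authors also deposited a log2 fold change and an unadjusted p-value. Averages of samples, in 7 further columns, were left out. Columns of a sample had a chi-square per gene of 0.291 to 0.765, less than sampling noise, and their mean, rounded, was 1 library. In 1 library 3 reads correspond to 0.174 to 0.292 CPM.

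After filterByExpr 13693 genes were tested with edgeR 4.0.16 (quasi-likelihood F test, TMM scaling, robust dispersion, no covariates), with Benjamini-Hochberg adjustment over all genes and a threshold of 0.05. Levels are TMM-scaled CPM, and log2 CPM uses a prior count of 2. Each SE was obtained by dividing the size of the log2 fold change by the root of its F statistic. DESeq2 1.42.0 and limma 3.58.1 were alternatives, with other scalings, no filter, single columns, a replicate block, leaving out mitochondrially encoded genes or each library. The fit of 14 columns was chosen after seeing the data. The code was tested on simulated data. Exon lengths come from GENCODE M21 (GRCm38, the assembly of mm10), and promoters from RefSeq.

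Members and lists were chosen with earlier results of these data known. Genes given by library were a set of catalytic, receptor, cap and scaffold genes, the 2 smallest p-values of each role and every member with an unadjusted p under 0.05. From pathway lists the 2 smallest p-values were taken, with Nfe2l1, Pomp, Adrm1, Psmb8 and Psmb9. Other members are summarised or given by their fold change. Some listed genes were not analysed here, and 1 gene that the rule names is not reported here.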

Additional observations from a re-analysis of the deposited data

How the results depend on the processing

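In edgeR's fits, DESeq2 and limma-voom, 0 members passed an adjusted p of 0.05 under any alternative but 14 columns as libraries, which called 11 lower. Members lower at an unadjusted p under 0.05 numbered 8; this was 5 with the first column alone, 2 with the replicate block, 19 with 14 columns and 0 without scaling factors, where 3.41%, 2.25%, 13.3% and 0.949% of all genes were lower, against 3.48% in the reported fit. It was 2 to 7 with a library left out, where 1.95% to 4.25% of all genes were lower. Members higher numbered 0, where 3.48% of all genes were higher. That count was 1 without scaling factors and 1 with 14 columns, where 5.185% and 12.8% of all genes were higher. With a library left out it was 0 to 1, where 1.99% to 4.25% of all genes were. Without scaling factors the median of all genes moved to 0.15, and the medians of core and 19S to -0.19 and -0.094; relative to all genes they were -0.34 and -0.24. They ran from -0.47 to -0.21 and from -0.32 to -0.11 with a library left out. All genes past the threshold numbered 1, against 5 without scaling factors, 3 with the block, 84 in DESeq2, 0 in limma-voom, 1360 with 14 columns and 1 to 5 with a library left out. Same-numbered samples did not deviate together (r from -0.0742 to -0.00171 over 3 pairs, 0 PX-478 libraries closest to their own number). The labels give a replicate number only, and these values cannot show whether same-numbered mice were handled together. Directions turned for some genes, among them Psmb9, which was at 0.32 in the reported fit. Without scaling factors Psmd9, Psme1, Psmf1, Uba1 and Ubb were at 0.0011, 0.012, 0.0034, 0.0063 and 0.014. Psme2 was at -0.018, -0.014 and -0.10 without Saline replicate 2, Saline replicate 3 and PX-478 replicate 3. Uba1 and Ubb were at 0.0073 and 0.057 without Saline replicate 3, Psme1 at 0.055 without PX-478 replicate 1, and Psmb8 and Psmb9 at -0.080 and -0.088 without PX-478 replicate 3. With a library left out, Psme1 ran from -0.37 to 0.055, Psmb8 from -0.080 to 0.31, Psmb9 from -0.088 to 0.57 and Ubb from -0.33 to 0.057. The other 742 of 774 values of 43 named genes kept direction and side of the threshold, apart from 19 that passed with 14 columns.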

Other observations

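Over the 7 libraries, the 5 genes outside the family whose log2 CPM followed the mean of the core genes most closely were Naf1 (Pearson r = 0.988), Desi1 (0.982), Uqcrc2 (0.982), Itm2b (0.981) and Mttp (0.979). They were picked from all tested genes by this measure, all values share the depth and scaling of the same libraries, and no test was made. Naf1 takes part in the assembly of small nucleolar ribonucleoproteins, Uqcrc2 is a core subunit of respiratory complex III and Mttp loads lipid onto apolipoprotein B. Their log2 fold changes were -0.45, -0.46, -0.43, -0.28 and -0.34, and none passed the threshold in edgeR. Naf1 was at -0.23 without PX-478 replicate 1.

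Members also differed in how closely they followed each other. Pairs of core genes had a median Pearson r of 0.625 over the 7 libraries, pairs of genes of the 19S particle one of 0.433, and pairs across the particles one of 0.561. These values run over both groups and share the scaling of the libraries. No background of other gene pairs is given, and the medians were not tested against each other. Psmb6 had the highest median r with the other members, at 0.711. At the other end stood Psmd10 at -0.262, Psmd1 at -0.202, Psmc6 at -0.114, Psmg2 at -0.108, Psma3 at -0.0752 and Psmb10 at -0.0533. Psmd10 and Psmg2 have the fewest reads of the members tested, while Psmd1 has among the most.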
